A study of Homo sapiens with 6 samples.

Results

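The AP-1 transcription factor family was taken as 8 genes given by name, FOS, FOSB, FOSL1, FOSL2, JUN, JUNB, JUND and ATF3, and each was found by its NCBI Gene ID among the 42902 genes of the deposited count table. Their mRNA was compared between PANC-1 cells carrying a short hairpin RNA against RRM2 (shRRM2, 3 libraries) and PANC-1 control cells (shNC, 3 libraries). The controls, titled NC, were taken to carry a non-targeting hairpin. PANC-1 is a line established from a human pancreatic ductal carcinoma, and RRM2 is the smaller of the subunits of ribonucleotide reductase, the enzyme that makes deoxynucleotides for DNA synthesis. The shNC cells are labelled wild type, a label that does not itself show a hairpin, and both groups share the line. The knockdown samples are titled sh, while their count columns carry the prefix si. The labels name no hairpin sequence, clone or time after transduction. Nothing in them tells whether replicates were grown as separate cultures, so the p-values cover only library-to-library spread, part or all of which may be technical.

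AP-1 is a dimer of basic leucine zipper proteins. JUN proteins can pair with each other or with a FOS protein, whereas FOS proteins bind DNA only with a partner, mostly a JUN protein, and ATF3 is a related factor that can pair with JUN proteins. The dimers bind the palindrome TGANTCA or the longer cyclic AMP response element TGACGTCA. Transcription of FOS, FOSB, JUN and ATF3 is known to respond within minutes to growth factors and stress, and FOSL1 to follow later and to be kept high by RAS and ERK signalling, a pathway that is active in most pancreatic carcinomas.

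The sequences before the starts of 5 of the genes are shown because they hold letters like those of the sites that the family and its relatives bind. They are the 250 bases before the RefSeq start (GRCh38.p14), written 5′ to 3′ on the gene's strand, and capitals mark every match, on either strand, to 5 motifs. These were the AP-1 palindrome TGANTCA, the full cyclic AMP response element TGACGTCA, its variant TGACATCA, the short form TGACGT and the CArG box, the site of serum response factor. The short form is part of the full element, so that these matches overlap where both occur. The RefSeq table gave such windows for 7 of the 8 genes, all but FOSL1. The FOS window is chr14:75278578-75278827 (plus strand), that of FOSB chr19:45467746-45467995 (plus strand), that of JUN chr1:58784048-58784297 (minus strand), that of JUND chr19:18281623-18281872 (minus strand), and that of ATF3, at the more upstream of its 2 listed starts, chr1:212565157-212565406 (plus strand).
FOSB: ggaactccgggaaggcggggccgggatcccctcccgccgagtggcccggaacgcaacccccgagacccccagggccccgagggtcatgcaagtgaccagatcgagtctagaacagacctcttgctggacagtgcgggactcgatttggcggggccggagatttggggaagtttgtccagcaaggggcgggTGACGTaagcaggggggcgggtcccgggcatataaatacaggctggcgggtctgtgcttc
FOS: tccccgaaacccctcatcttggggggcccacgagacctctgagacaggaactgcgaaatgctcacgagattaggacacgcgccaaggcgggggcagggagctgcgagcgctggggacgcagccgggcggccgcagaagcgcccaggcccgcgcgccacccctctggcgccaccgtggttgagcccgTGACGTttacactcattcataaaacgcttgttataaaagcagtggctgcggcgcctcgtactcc
JUN: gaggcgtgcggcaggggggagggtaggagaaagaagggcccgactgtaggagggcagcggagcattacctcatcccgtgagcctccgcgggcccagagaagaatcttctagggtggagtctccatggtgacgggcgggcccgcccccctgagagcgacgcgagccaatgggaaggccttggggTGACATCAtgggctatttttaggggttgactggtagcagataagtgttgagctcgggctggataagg
JUND: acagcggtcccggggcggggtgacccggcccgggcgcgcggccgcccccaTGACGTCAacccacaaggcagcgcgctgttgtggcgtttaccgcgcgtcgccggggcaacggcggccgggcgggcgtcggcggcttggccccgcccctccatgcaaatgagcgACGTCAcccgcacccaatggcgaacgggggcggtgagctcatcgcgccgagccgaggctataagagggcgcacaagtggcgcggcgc
ATF3: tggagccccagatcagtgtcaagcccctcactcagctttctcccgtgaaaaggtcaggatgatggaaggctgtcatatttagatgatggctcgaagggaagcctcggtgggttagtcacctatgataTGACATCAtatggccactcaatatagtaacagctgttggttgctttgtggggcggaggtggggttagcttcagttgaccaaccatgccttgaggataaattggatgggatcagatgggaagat

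FOSB and FOS held TGACGT at nearly the same place, at positions −60 to −55 in FOSB and −64 to −59 in FOS, counted from the start, and FOSL2 held it at −66 to −61. JUN held TGACATCA at −67 to −60, the variant site at which JUN is known to act on its own gene, and ATF3 held the same 8 letters at −123 to −116. JUND held the full TGACGTCA at −200 to −193 and TGACGT on the other strand at −87 to −82. No window of the family held TGANTCA or a CArG box, and neither the JUNB window nor the second ATF3 window held any of the 5. Among all 35116 windows of the same length, 7.1% held TGACGT, 2.37% TGACATCA, 1.65% TGACGTCA, 6.57% TGANTCA and 1.16% a CArG box. These matches describe the letters of the windows alone, and counts per gene do not show which start of ATF3 was used.

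The libraries held 16606947 to 23300433 counts, and a level of 1 CPM (counts scaled to a common library size) rests on 16.6 to 23.3 counts. RRM2 itself fell to 40.2 ± 0.607 CPM in shRRM2, against 199.7 ± 6.38 CPM in shNC (SD, n = 3 each), with a log2 fold change of −2.31 (SE 0.0443). Of the epithelial markers of the labelled cell type, KRT8, KRT18 and KRT7 had 11206 counts or more in every library. After scaling, KRT8 and KRT18 were higher in shRRM2, at log2 fold changes of 0.60 and 0.45. KRT7 was slightly lower, at −0.07. KRT19 had 6, 6 and 6 counts in shRRM2 and 2, 2 and 0 in shNC, EPCAM had 11 to 16 in shRRM2 and 3 to 7 in shNC, and CDH1 had 31 to 52 in shRRM2 and 11 to 23 in shNC. The list also holds SOX9 and VIM, the latter a gene typical of mesenchymal cells as well. SOX9 had 193 to 235 counts in shRRM2 and 87 to 90 in shNC. VIM had 10829 to 11786 counts in shRRM2 and 9041 to 12630 in shNC, before scaling for library size. After scaling it was slightly higher in shRRM2, at a log2 fold change of 0.12. The 8 markers of this list summed to 4022 to 4089 CPM of the total in shRRM2 and to 3045 to 3120 in shNC. Nearly all of this sum was KRT8, KRT18, KRT7 and VIM. Among markers of other cell types, KDR, CD3E, PRSS1, CPA1, INS and GCG were at 0 in all libraries. COL1A1 and PDGFRB were well detected and higher in shRRM2. COL1A1 had 577 to 621 counts in shRRM2 and 333 to 425 in shNC. PDGFRB had 478 to 558 counts in shRRM2 and 149 to 202 in shNC. The rest of the fibroblast list was scarce. DCN, LUM, COL1A2, COL3A1, THY1 and FAP had totals of 8, 13, 7, 40, 55 and 109 counts over the 6 libraries. The 8 fibroblast markers summed to 62.3 to 67.6 CPM of the total in shRRM2 and to 27.7 to 29.8 in shNC. The 5 immune markers summed to 82.1 to 85.3 CPM in shRRM2 and to 25.9 to 26.5 CPM in shNC, nearly all of it CD68, also a lysosomal protein, with 1423 to 1663 counts in shRRM2 and 415 to 607 in shNC. CD14 went the other way, with 4 to 7 counts in shRRM2 and 8 to 14 in shNC. The 5 endothelial markers summed to 4.96 to 5.68 CPM in shRRM2 and to 1.51 to 1.63 CPM in shNC. Most of this was CDH5 and VWF, with totals of 205 and 134 counts, against 17 for PECAM1 and 21 for TEK. The part of all these markers in the results below was not tested. In these bulk libraries a change in the number of cells that express a gene and a change in RNA per cell cannot be told apart.

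All 8 genes passed the filter on low counts in edgeR. Most of the family was higher in the knockdown: FOSB, ATF3, JUN, FOSL1, FOSL2 and JUNB rose, JUND fell, and FOS did not pass the test. The threshold was an adjusted p of 0.05 in edgeR's quasi-likelihood test, adjusted by the Benjamini-Hochberg method over 15866 tested genes. By the same rule 52.1% of all tested genes were called, 26.0% as higher and 26.1% as lower, so that being called is common here, and the sizes of the changes carry more than their number. The members' median log2 fold change was 0.46, beside −0.01 over all tested genes. No member had overlapping groups in CPM, which held for 57.8% of all tested genes. In edgeR's test against a minimum change of 1.5-fold, FOSB and ATF3 passed, a rule that called 6.10% of all tested genes.

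**Figure D1:**
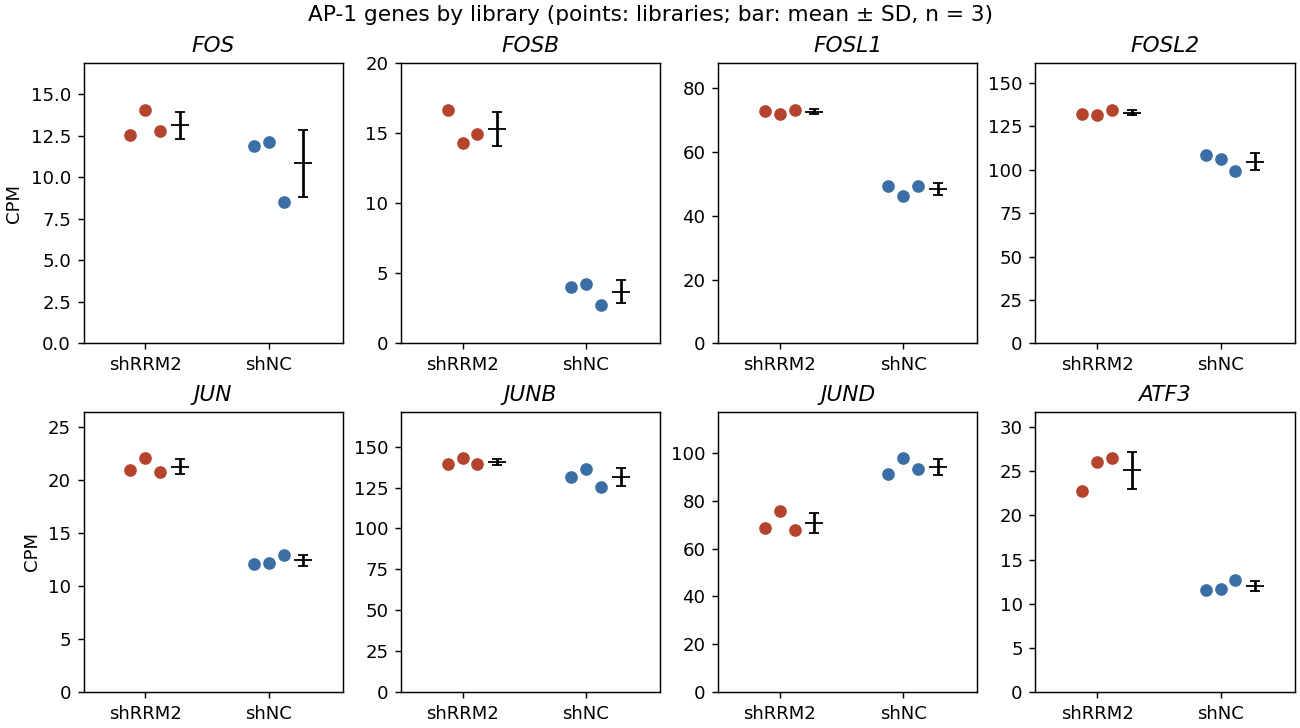
Level of each AP-1 gene in CPM (vertical axes, starting at 0) in the 3 shRRM2 libraries (red) and the 3 shNC libraries (blue), with the mean ± SD beside the points. Each panel has its own axis. FOSB has the largest fold difference between the groups, JUND alone is lower in shRRM2, and 1 shNC library of FOS, at 8.50 CPM, lies below the other 2.

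The FOS family gave the largest change. FOSB (Gene ID 2354, chromosome 19, 45467996 to 45475179), an early response gene whose short splice form is known for its persistence in neurons, had 16.69, 14.3 and 14.97 CPM in shRRM2 replicates 1 to 3, against 4.06, 4.25 and 2.73 CPM in shNC replicates 1 to 3. The lowest shRRM2 library was thus well above the highest shNC library. FOSB was 4.10-fold higher, or 2.04 on the log2 scale with an SE of 0.147 (adjusted p = 1.2e-13), and 1.07% of the tested genes had a larger size of change in either direction. The values rest on 271 to 295 counts in shRRM2 and 45 to 98 counts in shNC. The table counts reads per gene, so that the splice forms of FOSB cannot be separated.

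FOS (Gene ID 2353, chromosome 14, 75278828 to 75282230), the founding member and the usual first marker of growth factor stimulation, had 12.6, 14.1 and 12.8 CPM in shRRM2 and 11.9, 12.1 and 8.50 CPM in shNC. The groups did not overlap, but the gap between them was small, and shNC replicate 3 stood below the other 2 shNC libraries. Its log2 fold change of 0.27, with an SE of 0.124 and a 95% interval of 0.02 to 0.52, missed the threshold (adjusted p = 0.0691). Without shNC replicate 3 it was 0.13 (adjusted p = 0.413). It passed the threshold without shNC replicate 2 (0.36, adjusted p = 0.0439) and when only library size was used for scaling (0.31, adjusted p = 0.0377). Over the alternatives that test for any change, the adjusted p of FOS lay between 0.0377 and 0.413. FOS did not pass the test against a minimum change of 1.5-fold. FOS and FOSB, both lowest in shNC replicate 3, had CVs of 18.6% and 22.4% in shNC, against 3.58% to 4.83% for the other 6 genes.

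The FOS-to-FOSB balance can be read within each library, where no scaling between libraries enters. Counts per kilobase of exon gave a FOSB level of 0.775, 0.594 and 0.684 times that of FOS in shRRM2 and of 0.199, 0.205 and 0.187 times in shNC. The log2 ratio was 1.79 higher in shRRM2, with no overlap between the groups. An exact two-sided permutation test of 3 libraries against 3 gave p = 0.1, the smallest it can give, and this pair was picked after its values were seen.

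FOSL1 (Gene ID 8061, chromosome 11, 65892049 to 65900545) encodes FRA-1, the FOS protein most often described in invasive carcinoma cells and one that lacks the C-terminal activation domain of FOS. It had 72.9, 71.9 and 73.2 CPM in shRRM2, against 49.4, 46.3 and 49.5 CPM in shNC. Its shRRM2 libraries varied by a CV of 0.964%, the smallest of the family, and stood far above all shNC libraries. It rose by 0.59 in log2 units, with an SE of 0.0531 (adjusted p = 2.75e-11). FOSL2 (Gene ID 2355, chromosome 2, 28392858 to 28417317), which encodes the related FRA-2, had 132.3, 131.6 and 134.5 CPM in shRRM2, against 108.4, 106.4 and 99.3 CPM in shNC and rose by 0.34 in log2 units, with an SE of 0.0416 (adjusted p = 1.8e-08). FOSL2 overlaps an antisense gene, FOSL2-AS1, which had at most 6 counts in a library.

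In the JUN family the 3 genes went different ways. JUN (Gene ID 3725, chromosome 1, 58780791 to 58784047), the target of the JUN N-terminal kinases, had 20.93, 22 and 20.71 CPM in shRRM2, against 12.1, 12.2 and 12.9 CPM in shNC. Each group was tight, with a CV of 3.24% in shRRM2 and 3.92% in shNC, and the lowest shRRM2 value was well above the highest shNC value. JUN was 1.72-fold higher, a log2 rise of 0.78 with an SE of 0.0959 (adjusted p = 2.29e-08). In the test against a minimum change of 1.5-fold JUN did not pass (adjusted p = 0.0935).

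JUND (Gene ID 3727, chromosome 19, 18279694 to 18281622), which in many cells is kept at a steady level and is known to restrain proliferation in fibroblasts, was the only member that fell. It had 68.6, 75.6 and 67.9 CPM in shRRM2, against 91.1, 97.8 and 93.4 CPM in shNC. The mean of the knockdown was 0.751 times that of shNC, a log2 fold change of −0.41 with an SE of 0.0498 (adjusted p = 1.58e-08). Over the alternatives tried the estimate lay between −0.46 and −0.38. Set against each other within libraries, the JUN level per kilobase of exon was 0.161, 0.153 and 0.160 times that of JUND in shRRM2 and 0.0696, 0.0654 and 0.0729 times in shNC. This log2 ratio was 1.19 higher in shRRM2 (exact permutation p = 0.1, the smallest possible, for a pair picked after its values were seen).

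JUNB (Gene ID 3726, chromosome 19, 12791486 to 12793315), described as a weaker activator that can oppose JUN in cell cycle control, barely differed. It had 139.5, 142.9 and 139.4 CPM in shRRM2 and 131.6, 136.6 and 125.6 CPM in shNC. The groups were separate but close. The log2 rise was 0.10, with an SE of 0.0395 and a 95% interval of 0.02 to 0.18 (adjusted p = 0.039). The call was lost with DESeq2 (0.10, adjusted p = 0.108) and without a filter on low counts (0.10, adjusted p = 0.0579). It was also lost without shRRM2 replicate 1 (0.11) or 2 (0.09) or shNC replicate 1 (0.09) or 3 (0.06, adjusted p = 0.213). Over the alternatives that test for any change, the adjusted p of JUNB lay between 0.00414 and 0.213. JUNB did not pass the test against a minimum change of 1.5-fold. JUNB overlaps HOOK2, which fell by 0.44 (SE 0.0905) and had 272 to 339 counts in shRRM2 and 355 to 520 in shNC. The library kit keeps strand, but the strand setting of the counting is not given here, so reads in the shared stretch are uncertain.

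ATF3 (Gene ID 467, chromosome 1, 212565407 to 212620777), a stress-induced factor that as a homodimer is described as a repressor, had the second largest change. It had 22.7, 26.1 and 26.5 CPM in shRRM2, against 11.6, 11.7 and 12.6 CPM in shNC. The lowest shRRM2 library was far above the highest shNC library. ATF3 was 2.10-fold higher, or 1.07 on the log2 scale with an SE of 0.0959 (adjusted p = 2.28e-11), and 5.79% of the tested genes had a larger size of change. It also passed the test against a minimum change of 1.5-fold (adjusted p = 5.63e-05), as did FOSB (adjusted p = 2.62e-10).

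**Figure D2:**
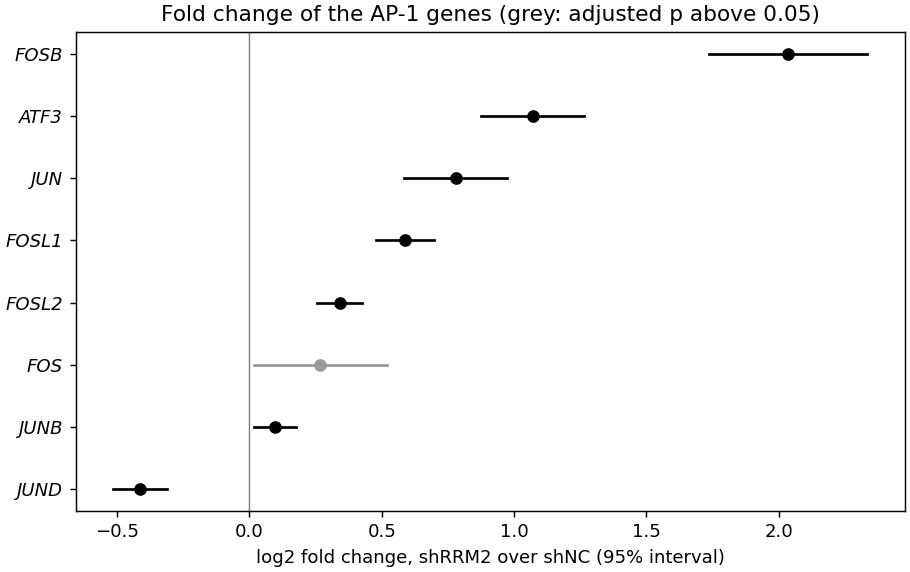
Log2 fold change of the 8 genes, shRRM2 over shNC, with 95% intervals from edgeR's fit (horizontal axis), ordered by value with its sign. FOSB at 2.04 and ATF3 at 1.07 lie farthest to the right, JUND at −0.41 lies left of 0, and FOS is grey because its adjusted p of 0.0691 is above the threshold.

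The large fold changes lay among the members at low levels. On the scale of CPM per kilobase of exon, which allows genes of different length to be set side by side, JUNB was the highest in both groups, at 77.3 ± 1.11 in shRRM2 and 72.1 ± 3.03 in shNC (SD, n = 3 each). In shRRM2 it was followed by FOSL1 at 38.5 ± 0.371, JUND at 38.0 ± 2.28, FOSL2 at 18.6 ± 0.213, ATF3 at 6.21 ± 0.506, JUN at 5.99 ± 0.194, FOS at 4.05 ± 0.249 and FOSB at 2.76 ± 0.222. In shNC the order was JUND at 50.5 ± 1.81, FOSL1 at 25.7 ± 0.960, FOSL2 at 14.6 ± 0.667, JUN at 3.50 ± 0.137, FOS at 3.35 ± 0.623, ATF3 at 2.96 ± 0.143 and FOSB at 0.663 ± 0.149. The libraries of FOSL1 and JUND overlapped in shRRM2, as did those of ATF3 and JUN. In shNC the range of FOS overlapped that of JUN and that of ATF3. All other neighbours were separate. The 4 genes at the lower levels include the 3 with the largest fold changes, and the gene with the highest level, JUNB, had the smallest.

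These levels depend on which transcripts are made. With the longest annotated transcript as the length, a choice made after the data were seen, ATF3 stood at 11.9 in shRRM2 and 5.69 in shNC, FOS at 6.08 in shRRM2 and 5.02 in shNC, and FOSB at 4.06 in shRRM2 and 0.975 in shNC, all in CPM per kilobase. This placed ATF3 above JUN and FOS in both groups by mean. FOSL1, at 43.5, then stood above JUND, at 38.0, in shRRM2 without overlap. JUNB remained the highest in both groups.

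By share of the summed level per kilobase, the family shifted toward its FOS side. The 4 FOS genes made up 33.9%, 32.5% and 33.9% of the sum in shRRM2, against 26.4%, 24.7% and 25.6% in shNC. The 3 JUN genes made up 63.2%, 64.2% and 62.7% in shRRM2, against 72.0%, 73.7% and 72.6% in shNC. Neither share overlapped between the groups.

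Most of this shift lay with FOSL1 and JUND. FOSL1 held 20.1% ± 0.534 of the sum in shRRM2 and 14.8% ± 0.891 in shNC, and JUND held 19.8% ± 0.839 in shRRM2 and 29.1% ± 0.782 in shNC (SD, n = 3 each). JUNB held 40.4% ± 0.160 in shRRM2 and 41.6% ± 0.728 in shNC. FOSB, in spite of its large fold change, held 1.44% ± 0.137 in shRRM2 and 0.381% ± 0.0781 in shNC. The summed level of all 8 was 191.3 ± 3.40 CPM per kilobase in shRRM2 and 173.4 ± 4.30 in shNC.

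The log2 ratio of the FOS sum to the JUN sum was −0.92 ± 0.0518 in shRRM2 and −1.51 ± 0.0650 in shNC (SD, n = 3 each), a difference of 0.59. An exact two-sided permutation test over the libraries gave p = 0.1, the smallest that 3 against 3 allows. Leaving JUND out of the JUN sum brought the difference to 0.39.

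**Figure D3:**
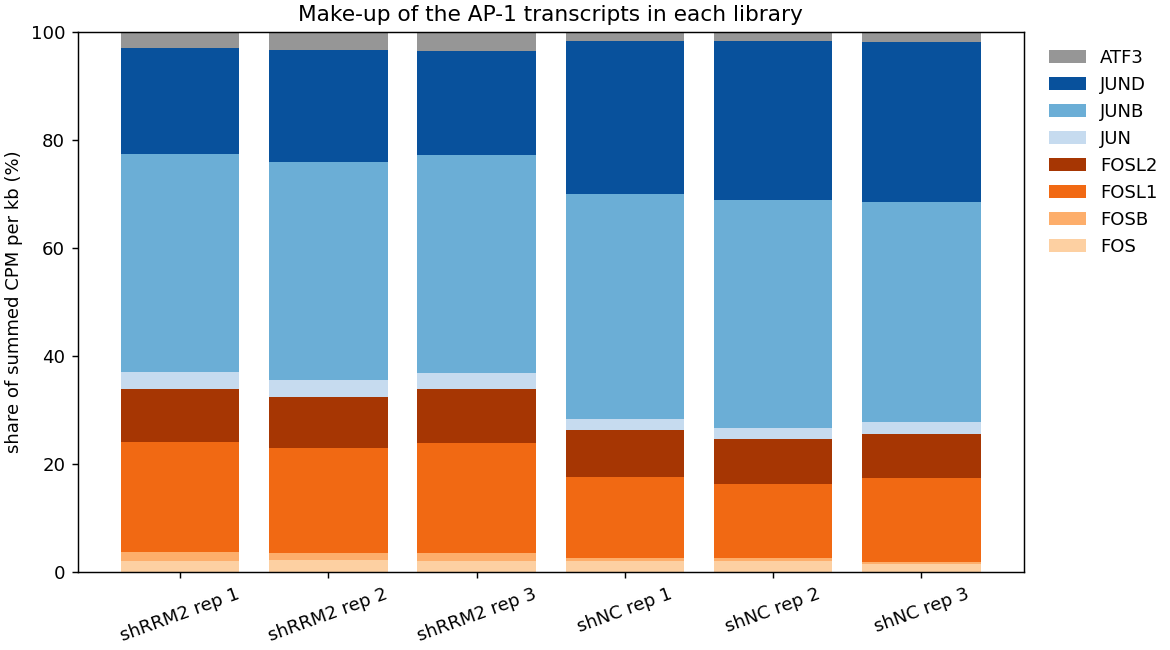
Share of each AP-1 gene in the summed level of the 8 genes, in percent of CPM per kilobase of exon (vertical axis), for each library. In shRRM2 the JUND segment (dark blue) is narrower, at 19.2% to 20.8% against 28.2% to 29.6% in shNC, and the FOSL1 segment (orange) is wider, while the JUNB segment (light blue) is about the same width throughout.

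Other leucine zipper factors that can pair with FOS or JUN proteins, or bind similar sites, moved in both directions. Of 18 tested, 7 rose and 4 fell, that is 61.1% called beside the 52.1% of all tested genes, with a median log2 fold change of 0.17. NFE2, a partner of the small MAF proteins best known in blood cells, rose by 1.05 (SE 0.141), with 10.5 CPM in shRRM2 and 5.03 CPM in shNC. JDP2, a repressor that dimerises with JUN, rose by 0.65 (SE 0.0908). Among those that fell, NFE2L3 was at −0.93 (SE 0.149), ATF4, the effector of the integrated stress response, at −0.39 (SE 0.0426) and MAFK at −0.35. BATF, BATF2, CREB5 and MAF did not pass the filter, with totals of 2, 20, 0 and 0 counts over the 6 libraries.

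Of 25 tested kinases and factors upstream of the family, 8 rose and 2 fell, 40.0% in all, beside 52.1% of all tested genes, and the median was 0.03. MAP3K1, a kinase that feeds the JUN N-terminal kinases, had the largest rise, 0.61 (SE 0.0566, adjusted p = 5.62e-11), followed by MAP2K7, which activates those kinases directly, at 0.29 and ELK4, a cofactor of serum response factor, at 0.27. RPS6KA3, the ERK-activated kinase RSK2, fell by 0.43 (SE 0.0442) and MAPK9, the kinase JNK2, by 0.16. The mRNA level of a kinase says nothing about its activity. MAPK10 and RPS6KA2 did not pass the filter.

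Of 13 regulators of the turnover of FOS and JUN mRNA or protein, all tested, 2 rose and 4 fell, 46.2% in all, near the 52.1% of all tested genes, with a median of −0.07. ZFP36L1, which drives the decay of mRNAs with AU-rich elements, rose by 0.59 (SE 0.0510), with 95.4 CPM in shRRM2 and 63.3 CPM in shNC. HNRNPD, the AU-rich element binding protein AUF1, fell by 0.45 (SE 0.0315) to 295.8 CPM in shRRM2, against 402.7 CPM in shNC. DET1 and COP1, partners in a ubiquitin ligase that targets JUN protein, fell by 1.03 (SE 0.279) and 0.23 (SE 0.0645), and ITCH, another ubiquitin ligase for JUN proteins, rose by 0.15. The libraries of DET1 and of ITCH overlapped between the groups.

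Among genes generally described as having AP-1 sites in their control regions, more rose than fell. Of 30 listed, 21 passed the filter on low counts, and of these 14 rose and 2 fell, 76.2% in all, with a median log2 fold change of 0.56. Over all tested genes 52.1% were called, 26.0% as higher, and the median was −0.01. TNC, which encodes the matrix protein tenascin C, rose by 3.28 (SE 0.585) at very low levels, with 1.09 ± 0.223 CPM in shRRM2 and 0.109 ± 0.0654 CPM in shNC (SD, n = 3 each). CXCL8, the neutrophil chemokine, rose by 2.48 (SE 0.363) and averaged 2.46 CPM in shRRM2 and 0.424 CPM in shNC. TNC and CXCL8 passed the filter on low counts only through shRRM2, so that they had to differ. A further 11 that rose lay between 0.09 (CD44) and 1.68 (IL6). The cell cycle gene CCND1 fell by 0.49 (SE 0.0327), with 221.1 CPM in shRRM2 and 310.1 CPM in shNC, and PLAUR, the receptor of urokinase, by 0.19 (SE 0.0622).

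The collagenase and stromelysin genes, classical AP-1 targets, were barely detected in either group. MMP1, MMP3, MMP10 and MMP13 did not pass the filter, with totals of 32, 3, 1 and 26 counts over the 6 libraries, nor did SPP1, GJA1, IVL, SPRR1B and IL1B, with totals of 0 to 5. MMP9 was at 0.328 CPM in shRRM2 and 0.858 CPM in shNC (adjusted p = 0.0515). A gene that passed the filter only through the group in which it is high had to differ, as with TNC and CXCL8. The list was also chosen with earlier results of these data known. Neither the count of 14, the median of 0.56 nor the fold changes of such genes give support of their own. The list also moved together with the sums of the fibroblast, endothelial and immune markers given above, whose part was not tested.

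**Figure D4:**
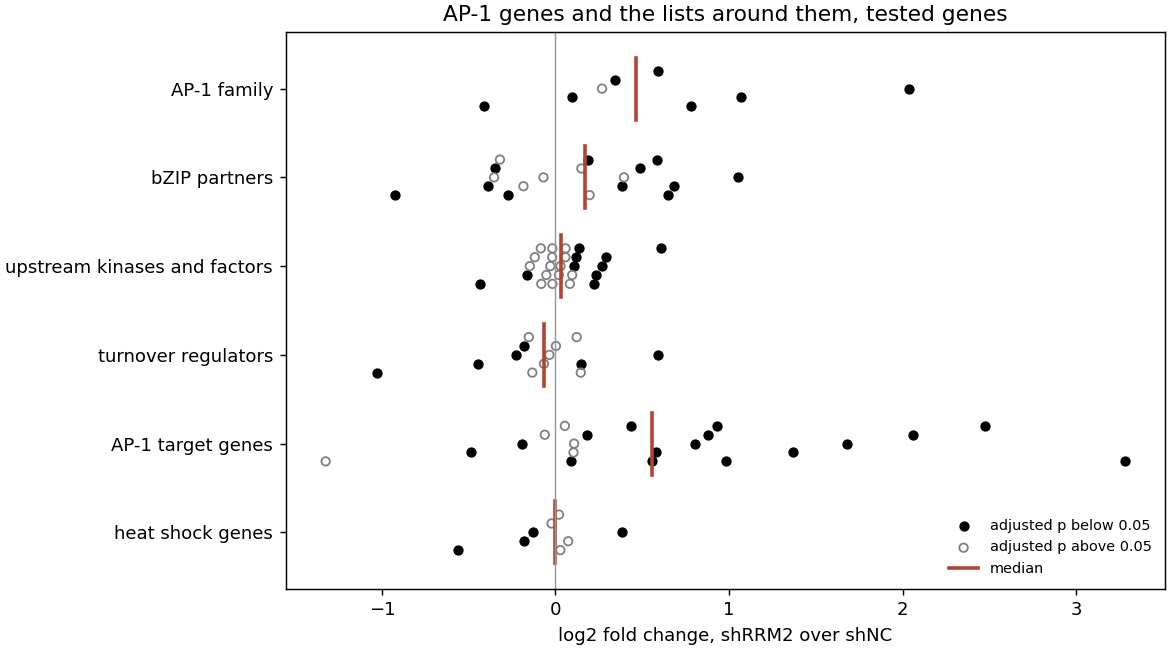
Log2 fold change, shRRM2 over shNC (horizontal axis), of each tested gene of the AP-1 family and of the 5 lists around it, with filled points for an adjusted p below 0.05 and a red bar at the median. The medians are 0.46 for the family, 0.56 for the target genes and 0.03 for the upstream kinases and factors. The lists were chosen with earlier results of these data known. The target median includes genes that passed the filter on low counts only through shRRM2.

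Early response genes react to handling of cells before lysis, and the heat shock genes were read for that reason. Of 8 tested, 1 rose and 3 fell, 50% in all, near the 52.1% of all tested genes, with a median of 0.00 to 2 decimals. The chaperone genes HSPA8, HSPA1B and HSPA1A fell by 0.56, 0.18 and 0.13, and BAG3 rose by 0.39 (SE 0.0520). Their summed level was 5552 to 5632 CPM of the total in shRRM2 and 6020 to 6108 in shNC. Whether handling has a part in the AP-1 values was not tested.

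For each member the 2 protein-coding genes with the most similar profile were sought among 12676 tested ones, by the root mean square difference of log2 CPM centred on each gene's mean over the 6 libraries. With 2 groups of libraries, such likeness mostly reflects a similar fold change. For FOSB they were KRT34 (0.06), a keratin of hair and nail, and ATP6V0A4 (0.12), a proton pump subunit, which rose by 2.04 and 2.01. For ATF3 they were CTSC (0.05) and SNRK (0.06), and for JUN, SYNE1 (0.01) and CD82 (0.03). For FOSL1 they were NPC2 and GNG11 (both 0.03), for FOSL2, TAPBP and TNKS1BP1 (both 0.02), for JUND, TXNL4A and DCP1A (both 0.02), for JUNB, TSPAN31 and ZDHHC4 (both 0.01), and for FOS, ZNF805 (0.05) and KIF9 (0.06).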

How the data were processed

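Reads were processed with fastp 0.23.4, featureCounts and hg38, as listed per the submitters' processing notes, after a directional poly(A) library kit, per the labels. Aligner, annotation release, strand and multi-mapping settings: not given in the sources used here. The authors deposited whole-number read counts per NCBI Gene ID, 1 column per library. Columns with the prefix si were matched to the shRRM2 samples by the gene name and number, and 0 columns were left over. Of 42902 IDs, 40120 matched a symbol in RefSeq (GRCh38.p14), and unmatched IDs held 1.25% of counts.

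Counts were filtered with edgeR's filterByExpr, which left 15866 genes, scaled with TMM and tested in R 4.3.3 with edgeR 4.0.16 (robust quasi-likelihood, group alone, two-sided, threshold 0.05). Each SE was obtained from the fold change and the F statistic. Exon lengths are the union of exons in GENCODE v29 (GRCh38). No 2 libraries of a group agreed within sampling noise (lowest chi-square per degree of freedom 2.23). Samples that share a replicate number did not deviate together (r = −0.02 to 0.00 across genes). The test was run once on simulated counts, where the share of false calls lay above its nominal level.

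The members and gene lists were chosen with earlier results of these data known. Named genes were all members, the 3 highest and 3 lowest called genes of each list, and the 2 nearest profiles of each member; 2 list genes that this rule names are not reported here. CD44, IL6, HOOK2, FOSL2-AS1 and the genes below the filter were named after their values were seen. Alternatives were library size alone, RLE factors, no filter, at least 1 CPM in 3 libraries, limma-voom (limma 3.58.1), DESeq2 1.42.0, the replicate block, a minimum change of 1.5-fold, other lengths or members for the ratio, and leaving out each library.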

Additional observations from a re-analysis of the deposited data

How the results depend on the processing

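Of 205 values recomputed under an alternative, 183 kept their direction and their side of the threshold (counts stayed within 1.5 times, and the FOS-to-JUN ratio moved by less than the spread between replicates), and 0 changed sign. FOSB and ATF3 passed under every alternative, at 1.87 to 2.16 and 1.04 to 1.14 on the log2 scale. JUN, FOSL1, FOSL2 and JUND passed under all but the test against a minimum change of 1.5-fold, which keeps the estimates and asks for more (JUN 0.78, FOSL1 0.59, FOSL2 0.34, JUND −0.41). JUNB (0.10) did not pass there either, nor with DESeq2 (0.10) or without a filter on low counts (0.10). Leaving out 1 library at a time moved JUNB between 0.064 and 0.13 and FOS between 0.13 and 0.36. FOS passed with library size alone (0.31) and with the replicate block (0.28, adjusted p = 0.0496). The labels share replicate numbers, but same-numbered libraries did not deviate together, so the block rests on the number alone. It changed no other call of a member and gave 8244 called genes against 8261. Library size alone moved the median log2 fold change of all genes to 0.03, and RLE factors to −0.01. The cause of these differences was not tested. Under the minimum change 968 genes were called, with 1 of the leucine zipper partners, 0 of the upstream genes, 0 of the turnover regulators, 6 of the target genes and 0 of the heat shock genes. By the main test these lists had 11, 10, 6, 16 and 4 called genes, and 8261 over all genes. The difference in the log2 ratio of FOS to JUN sums was 0.51 with counts not divided by length and 0.39 without JUND. The depth limits FOSB most, since its lowest count was 45 in a library, and counts below the filter give no fold change.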
